A study of Mus musculus with 9 samples.

Results

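Liver transcripts of mice fed a methionine-choline-deficient (MCD) diet were compared between animals treated with sarsasapogenin (SAR) and untreated animals on the same diet. All genes with a mean of at least 10 normalised reads over both groups were taken, 12534 of the 16294 genes in the table that holds these groups and of 16521 genes in the series. The choice used the mean over both groups and not the difference between them. Of the 12534 genes, 12468 could be tested over the individual libraries, and 66 very abundant genes are known from their group means alone.

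RNA of whole liver from C57BL/6 mice was sequenced in 3 groups of 3 samples: normal, MCD model and a group on the MCD diet with a high dose of SAR. The MCD model and SAR groups thus share strain and diet and differ in the treatment. The labels give no amount, route or length of treatment and no age or sex, and they name no vehicle for the model group. Whether each sample is a mouse of its own is not stated, so the p-values cover the spread between samples alone, and that spread could be technical.

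Sarsasapogenin is a plant steroid (a sapogenin) obtained from Anemarrhena asphodeloides. A diet without methionine and choline limits the synthesis of phosphatidylcholine, which the liver needs to export fat as lipoprotein, and it is widely used to induce steatosis with inflammation and fibrosis in rodents. Hepatocytes make most plasma proteins, bile acids and drug-metabolising enzymes, and in mice part of this output differs between the sexes under the control of pulsatile growth hormone. In injured liver, recruited macrophages, activated stellate cells and bile duct epithelium add their own transcripts to those of the hepatocytes. In bulk tissue, fewer cells of a type and less RNA per cell cannot be told apart.

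The 3 libraries of each group cannot be tied to replicate numbers. They are named a, b and c by falling size factor within each group, and values are listed in that order. A letter therefore does not pair libraries across the groups. Levels in the normal group come from the other deposited table, of normal against MCD model, which has its own scale, so each is given beside the model mean of that table. Reads split among libraries numbered 7805841 to 8857745 in the MCD model and 6309138 to 6828182 in the SAR group. Within its group, MCD model library c stood apart. Across genes, which are not independent replicates, its log2 values correlated at 0.929 and 0.940 with those of MCD model libraries a and b, against 0.980 between these, and at 0.916 to 0.933 with the SAR libraries. In 2935 of 3662 genes called below (80.1%), MCD model library c lay between the mean of the other MCD model libraries and that of the SAR libraries. Its median position over the called genes was 0.29, where 0 is the mean of MCD model libraries a and b and 1 that of the SAR libraries. The like count was not made for MCD model libraries a and b. Gene groups are therefore also given without MCD model library c, in the text or in the plot of list medians. Hepatocyte markers such as Hnf4a were abundant in all 6 libraries, and of the 13 pancreas, adipose and muscle genes listed, Cela1 alone reached the minimum, at 101, 95.4 and 175 and 122, 97.7 and 121 normalised reads.

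Among the gene lists, male-biased liver genes and genes of bile acid synthesis and transport were mostly higher with SAR, and markers of recruited macrophages, matrix, bile duct and cell division were mostly lower, with all 6 libraries in the test. In limma's test on log2(normalised reads + 1) with Benjamini-Hochberg adjustment, 1647 of 12468 genes (13.2%) were higher with SAR and 2015 (16.2%) were lower at an adjusted p under 0.05, and 8806 did not pass. Without MCD model library c, 2541 (20.4%) were higher and 2612 (20.9%) lower. Falls were larger than rises: 1637 lower genes but 647 higher genes had changed by more than 1 on the log2 scale, and 127 and 43 by more than 3. The median log2 fold change over all genes tested was 0.014, with quartiles of -0.63 and 0.39.

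**Figure D1:**
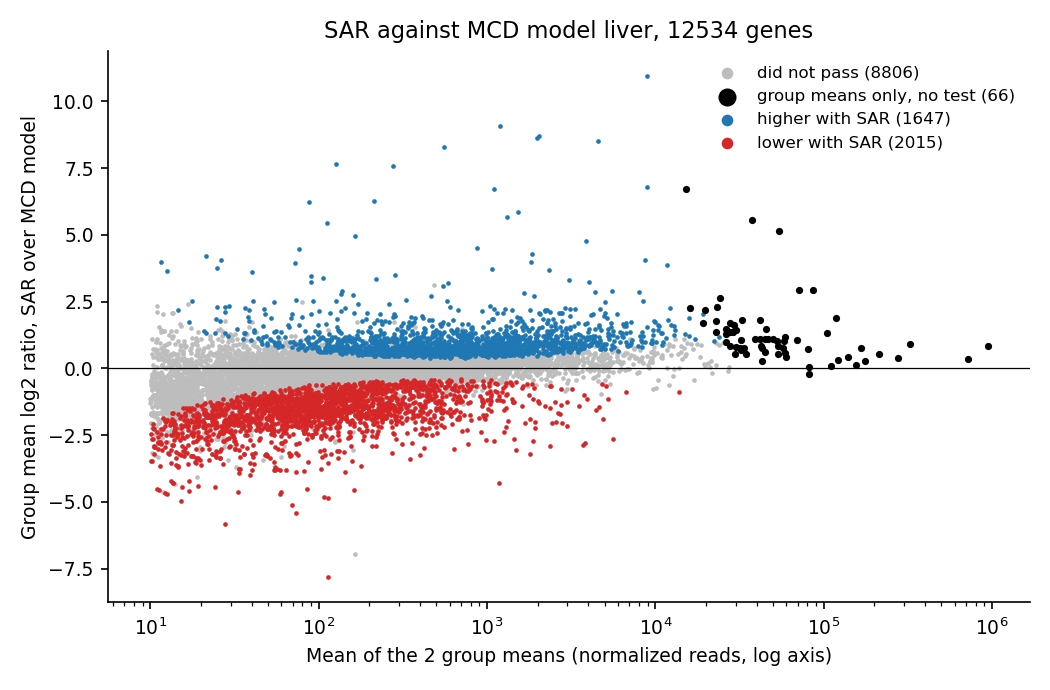
Group mean log2 ratio, SAR over MCD model (vertical axis), against the mean of both group means in normalised reads (horizontal log axis) for 12534 genes. Blue and red points are the 1647 higher and 2015 lower genes by limma, grey points did not pass, and the 66 black points, all at the abundant end, have group means only.

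By group means alone, with no test, 727 of 12534 genes (5.8%) had a log2 ratio above 1 and 2271 (18.1%) one below -1. The split between higher and lower genes depended on the filter and on the scaling. At a minimum mean of 50 in place of 10, 1616 genes were higher and 1451 lower, so that 52.7% of the called genes were higher. With the authors' size factors, 45.0% of the called genes were higher, with upper-quartile scaling 33.3%, and with scaling to total recovered reads 17%. These scalings put the median of all genes at -0.12 and -0.37, and changes are to be read relative to that median. All groups named below as mostly higher or mostly lower kept the sign of their median under both other scalings unless stated. The calls of single genes given with a p below were kept with any 1 of the 6 libraries left out, except where values without a library are given.

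**Figure D2:**
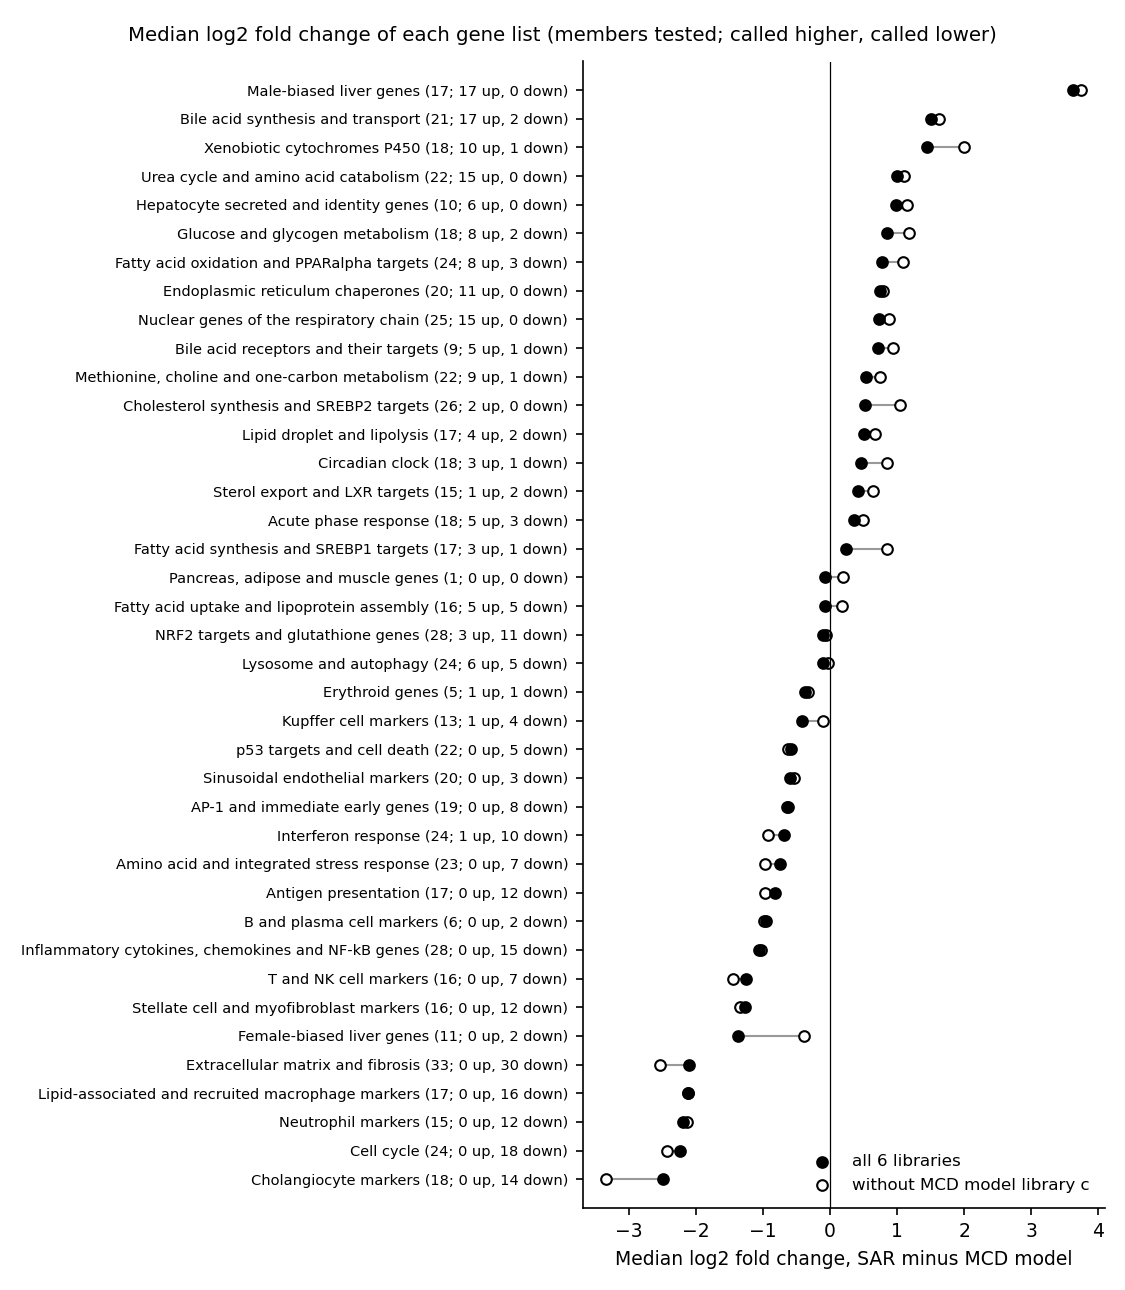
Median log2 fold change, SAR minus MCD model, over the tested members of each of 39 gene lists, with all 6 libraries (filled points) and without MCD model library c (open points). Beside each name stand the number of members tested and the numbers called higher (up) and lower (down) by limma. Male-biased liver genes lay highest, at 3.62, and cholangiocyte markers lowest, at -2.48, with all 6 libraries.

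The largest rises were those of genes that are more active in male than in female mouse liver. All 17 tested members of a list of male-biased liver genes were higher with SAR, with a median log2 fold change of 3.62 (3.74 without MCD model library c), and 16 or 17 of them stayed higher with each library left out. Of the 12 genes with the largest rises, 11 encode major urinary proteins (Mup), lipocalins that are secreted by the liver and carry pheromones in urine. Among all Mup genes tested 15 of 17 were higher, and Mup21 and Mup6 did not pass. These genes are near-identical copies, and how reads that match several copies were counted is not given in the sources used here, so the value of a single member is uncertain.

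Promoter sequences of 8 of the 11 Mup genes were found in RefSeq (GRCm38.p6), and 6 of these held a TATATAA box with the full window around it. The windows are shown because they make the likeness of these genes visible. Each has 43 bases, on the strand of the gene, with the box in capitals. That of Mup17 (chr4:61595835-61595877, minus strand) was identical in Mup15, Mup19 and Mup11, whereas Mup9 (chr4:60421961-60422003, minus strand) differed from it at 1 base and Mup18 (chr4:61674100-61674142, minus strand) at 3.
Mup17: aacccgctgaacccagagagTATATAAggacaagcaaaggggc
Mup9: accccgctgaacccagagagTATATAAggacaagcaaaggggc
Mup18: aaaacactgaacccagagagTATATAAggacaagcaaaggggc

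Mup7 (ENSMUSG00000073842) stood at 8.04, 8.6 and 7.27 normalised reads in the MCD model libraries and at 3969, 30419.7 and 18998 in the SAR libraries. The groups lay far apart, and within the SAR group library a held the least, which was also so for Mup11, Mup12, Mup16 and Mup1. The log2 fold change of Mup7 was 10.52 (SE 0.61, limma adjusted p = 5.22e-05). Mup12 (ENSMUSG00000094793), with the smallest p of all genes, went from 2.19, 3.13 and 2.42 to 721, 1411 and 1184 (log2 8.22, SE 0.30, limma adjusted p = 8.23e-06). For Mup17, whose promoter window is shown above, the values were 16.8, 8.6 and 0.808 in the model and 3523, 6666 and 1928 with SAR (log2 9.04, SE 0.76, limma adjusted p = 0.000338). Mup18, with 3 other bases in the window, went from 24.1, 14.1 and 21 to 1445, 3565 and 1526 (log2 6.62, SE 0.35, limma adjusted p = 4.07e-05). All 4 genes were thus nearly silent on the MCD diet alone and abundant in every SAR library. The exception was Mup21, at 89.9, 127 and 78.4 in the model and 991, 1608 and 27.8 with SAR, where SAR library c lay below the model libraries (limma adjusted p = 0.274). The 3 Mup genes with group means only, which have no test, had higher SAR means: Mup22 by 104-fold (289 to 30133), Mup3 by 35.8-fold (2956 to 105779) and Mup20 by 3.50-fold (18542 to 64831). A gene has group means only because of its high level with SAR, so this direction is partly set by the choice.

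**Figure D3:**
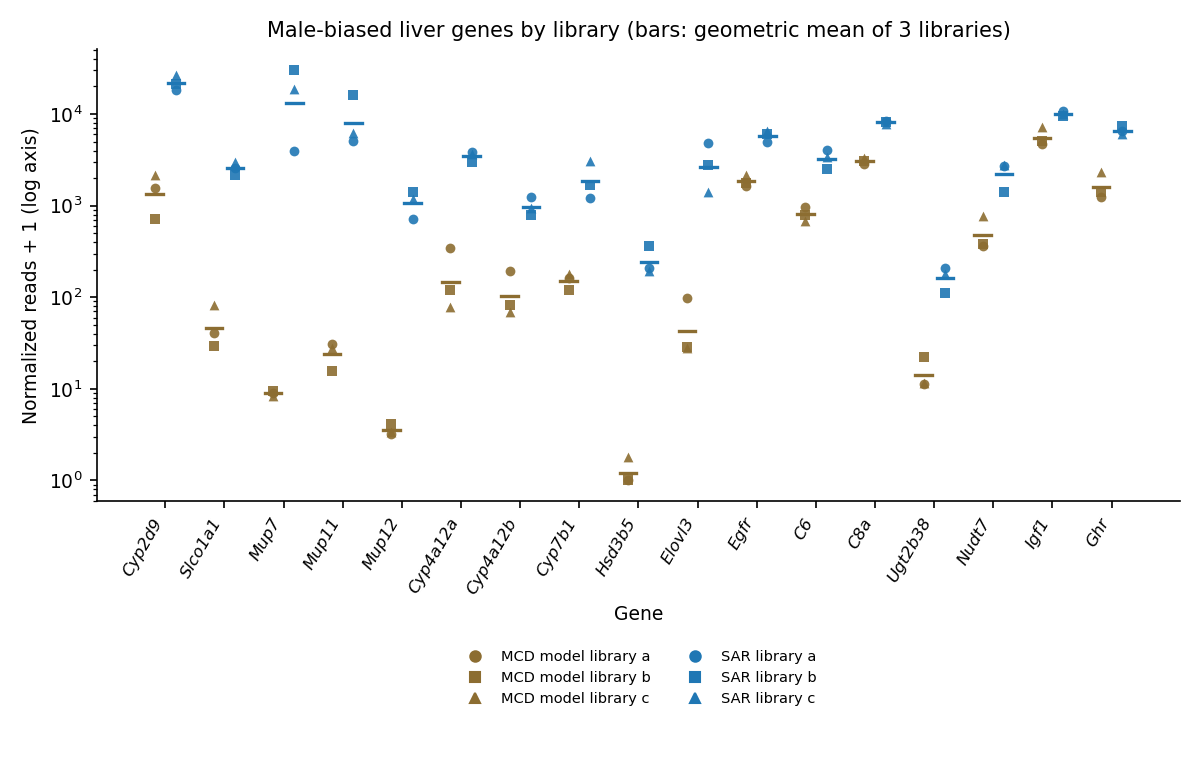
Normalised reads plus 1 (log axis) of the 17 male-biased liver genes tested, in each MCD model library (brown) and each SAR library (blue), with marker shapes for libraries a, b and c and a bar at the geometric mean of 3 libraries. In all 17 genes the 3 SAR libraries lie above the 3 MCD model libraries.

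Male-biased genes outside the Mup family rose too. Hsd3b5 (ENSMUSG00000038092), a hydroxysteroid dehydrogenase of male liver, had 1 read over the 3 model libraries and 599 over the SAR libraries. The ratio was 983, with a 95% exact interval of 176 to 38878 that covers counting error only. Slco1a1 (ENSMUSG00000041698), an organic anion transporter, went from 40.2, 28.1 and 80.8 to 2568, 2149 and 3027 (log2 5.79, SE 0.33, limma adjusted p = 5.22e-05). Elovl3, a fatty acid elongase, stood at 97.2, 27.4 and 26.7 in the model and at 4875, 2747 and 1407 with SAR (log2 5.97, SE 0.55, limma adjusted p = 0.00045), and the steroid hydroxylase gene Cyp2d9 at 1565, 709 and 2179 and 18196, 21238 and 26459 (log2 4.01, SE 0.39, limma adjusted p = 0.000534). In each of these 4 genes the lowest SAR library lay several times above the highest model library. The growth hormone receptor gene Ghr (log2 2.05, SE 0.25, limma adjusted p = 0.00129) and the epidermal growth factor receptor gene Egfr (log2 1.65, SE 0.20, limma adjusted p = 0.00121) rose less. For comparison within the series, the other table, on a scale of its own, gave Mup7 a normal group mean of 107324 and a model mean of 8.69, and Hsd3b5 one of 65.4 and 0.296.

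Most female-biased genes did not pass the test. Of 11 tested, Cyp17a1 and Cyp2a4 were lower and 9 did not pass. The steroid 17-hydroxylase gene Cyp17a1 went from 223, 317 and 284 to 102, 90.2 and 125 (log2 -1.37, SE 0.21, limma adjusted p = 0.00267). MCD model library c held most reads of the P450 gene Cyp2b9, which stood at 24.1, 84.4 and 2228 in the model and 36.9, 459.5 and 367 with SAR and missed the threshold (limma adjusted p = 0.952). The call of Cyp2a4, at 129, 395 and 1636 and 147, 30.1 and 49.0 (limma adjusted p = 0.0352), was lost without MCD model library b (0.0857), SAR library b (0.13) or c (0.102). The median of the list was -1.37, and -0.39 without MCD model library c, where 2 members were higher and 3 lower. The number lower was 1 without MCD model library b, SAR library b or c. Over this list MCD model library c averaged 3.27 above the other model libraries on the log2 scale, whereas the male-biased list averaged 0.15 above them there. The part of that library in the female-biased result was not tested.

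Genes of bile acid synthesis and transport were mostly higher. Bile acids are made from cholesterol in hepatocytes, by a classic route that opens with Cyp7a1 and an acidic route through Cyp27a1 and Cyp7b1, and transporters then move them across the sinusoidal and canalicular membranes. Of 21 genes of their synthesis and transport tested, 17 were higher with SAR, 2 were lower and 2 did not pass (median log2 1.5, and 1.62 without MCD model library c). The number higher was 11 without MCD model library a and 10 without MCD model library b or SAR library b.

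**Figure D4:**
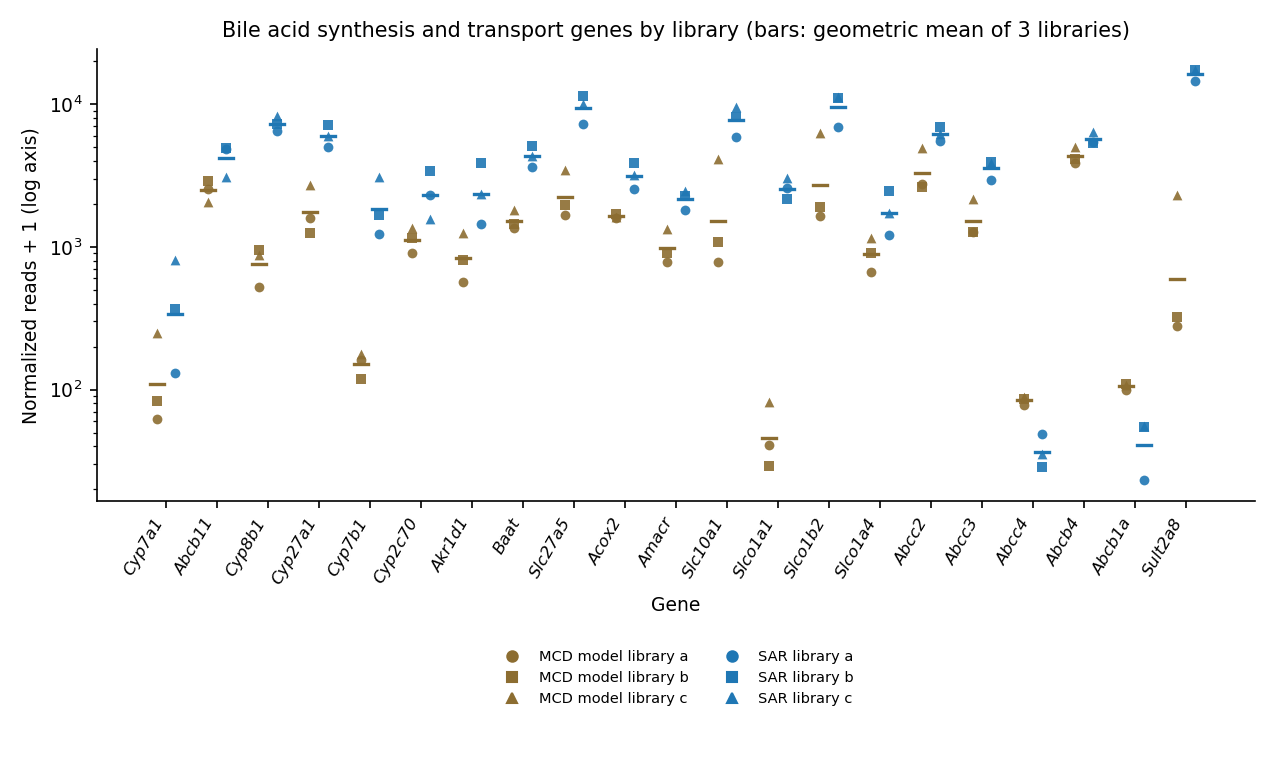
Normalised reads plus 1 (log axis) of the 21 bile acid synthesis and transport genes tested, by library, with bars at the geometric mean of 3 libraries. Most SAR values (blue) lie above the MCD model values (brown), Abcc4 and Abcb1a lie below them, and MCD model library c (brown triangles) lies nearer to SAR for Slc10a1, Slco1b2 and Sult2a8.

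Among the enzymes, Cyp8b1 (ENSMUSG00000050445), the sterol 12-alpha-hydroxylase required for cholic acid, stood at 524, 948 and 873 normalised reads in the model libraries and at 6505, 7229 and 8172 with SAR (log2 3.26, SE 0.24, limma adjusted p = 0.000183). The groups did not overlap, and the other table gave 11647 for the normal group and 852 for the model. Cyp7b1, which 7-hydroxylates oxysterols, went from 159, 118 and 177 to 1219.8, 1674 and 3075 (log2 3.62, SE 0.31, limma adjusted p = 0.000374) and is male-biased as well. Cyp7a1, the rate-limiting enzyme of the classic route, was spread widely, at 61.4, 82.1 and 246 and 129, 364 and 807. SAR library a lay below MCD model library c, and Cyp7a1 missed the threshold (limma adjusted p = 0.0939). Sult2a8, a bile acid sulfotransferase, rose from 280.0, 322 and 2314 to 14568, 17203 and 17352 (log2 4.78, SE 0.68, limma adjusted p = 0.00211), with MCD model library c far above the other model libraries. The conjugating enzymes Baat (log2 1.5, SE 0.20, limma adjusted p = 0.00163) and Slc27a5 (log2 2.07, SE 0.30, limma adjusted p = 0.00248) rose together.

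Among the transporters, the 4 uptake carriers tested and the exporters Abcb11, Abcc2 and Abcc3 were higher, Abcc4 and Abcb1a were lower, and the phospholipid pump gene Abcb4 missed the threshold (limma adjusted p = 0.171). With each library left out in turn, the calls of Slco1b2 and Slco1a4 were lost in 4 of 6 cases and that of Abcc2 in 5. The sodium-dependent bile acid carrier Slc10a1 went from 776, 1081 and 4149 to 5870.3, 8096 and 9557 (log2 2.34, SE 0.54, limma adjusted p = 0.0136), a call that was lost without MCD model library b (0.0578), SAR library b (0.0547) or c (0.0513). Abcb11, the bile salt export pump, stood at 2527, 2911 and 2069 and 4848, 4948 and 3092 (log2 0.76, SE 0.24, limma adjusted p = 0.0414), and its call was lost without MCD model library a (0.0943), b (0.0787), SAR library a (0.106) or b (0.148). The lower exporters were Abcc4, at 76.8, 85.2 and 88.1 and 47.9, 27.5 and 34.4 (log2 -1.20, SE 0.28, limma adjusted p = 0.0147), and the drug efflux pump Abcb1a (log2 -1.35, SE 0.35, limma adjusted p = 0.0222). These calls were lost without MCD model library b (0.0635) or SAR library b (0.0514) for Abcc4 and without MCD model library a (0.0645) or b (0.0776) for Abcb1a. Of 9 bile acid receptors and targets tested, 5 were higher and 1 lower. Nr0b2, which encodes the repressor SHP and is a target of the bile acid receptor FXR, went from 384, 669 and 634 to 1425, 1569 and 1382 (log2 1.41, SE 0.22, limma adjusted p = 0.00298). Nr1h4, the FXR gene itself, rose by 1.14 on the log2 scale (limma adjusted p = 0.0115), but did not pass without MCD model library b (0.0549). The median of this list was 0.71, and without MCD model library c 6 higher and 1 lower, median 0.94. With upper-quartile scaling or scaling to total recovered reads 2 were higher. Its higher members numbered 2 without MCD model library a, SAR library b or c, 1 without MCD model library b, and its lower members 0 without MCD model library a, b, SAR library a or b.

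Of 18 xenobiotic P450 genes tested, 10 were higher and 1 lower with SAR (median log2 1.45). MCD model library c averaged 2.40 above the other model libraries over this list on the log2 scale, beside 1.78, 2.44 and 2.40 for the SAR libraries, and without it 12 were higher (median 2.0). Cyp2c54 (ENSMUSG00000067225) stood at 95.8, 206 and 512 in the model libraries and at 5105, 10051 and 7207 in the SAR libraries (log2 5.04, SE 0.52, limma adjusted p = 0.000752). All SAR libraries lay above MCD model library c, the highest of its group. Cyp2d10 rose as well (log2 1.77, SE 0.26, limma adjusted p = 0.00233). Cyp3a11, the main inducible P450 of mouse liver, has group means only, 20070.5 in the model and 151783 with SAR, a ratio of 7.56. In the other table its normal and model means were 43768.5 and 21887. Lower P450 genes numbered 0 without MCD model library b, SAR library b or c.

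Of 10 hepatocyte secreted and identity genes tested, 6 were higher and 4 did not pass (median log2 0.99, and 1.15 without MCD model library c). The number higher was 3 without MCD model library b or SAR library b. Hnf4a, the master regulator of hepatocyte identity, went from 4195, 5289 and 5076 to 10808, 12562 and 10449.6 (log2 1.22, SE 0.23, limma adjusted p = 0.00606), and the transcription factor gene Cebpa from 1525, 1640.4 and 2172 to 3247, 3489.7 and 3744 (log2 0.99, SE 0.19, limma adjusted p = 0.00661). In both genes the groups lay apart with little spread. The 11 further members of the list, with Alb and Ttr among them, have group means only, and all 11 means were higher with SAR. Over the 66 genes without values per library, 65 had a higher SAR mean and 35 a mean over 2 times that of the model. But a gene entered this set through its high level with SAR, so the direction is partly set by the choice. Summed over all genes, SAR means were 1.48 times the model means. The direction of smaller ratios, such as 1.06 for Ahsg, one of the 11 list members, thus depends on the scaling. Among the 66 genes the protease inhibitor genes Serpina1e (1553 to 73312) and Serpina3k (16440 to 126323) had the largest ratios after Mup22, with Mup3 between them. These 66 genes made up 47.0% of the summed SAR means and 39.7% of the summed model means.

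More than 1 in 2 of the urea cycle, respiratory chain and chaperone genes tested were higher with SAR. Of 22 urea cycle and amino acid catabolism genes tested, 15 were higher and none lower (median log2 1.0), of 25 nuclear genes of the respiratory chain 15 and none (0.73), of 20 endoplasmic reticulum chaperones 11 and none (0.74), and of 18 glucose and glycogen genes 8 and 2 (0.85). Otc, the ornithine transcarbamylase of the urea cycle, went from 2969, 4131 and 3156 to 9281, 9654 and 7669 (log2 1.38, SE 0.22, limma adjusted p = 0.00359). Nags, whose product activates the first enzyme of that cycle, stood at 448, 492 and 516 and 892, 879 and 934 (log2 0.89, SE 0.14, limma adjusted p = 0.00276). Both genes were higher in 3 of 3 SAR libraries. The first enzyme itself, Cps1, has group means only, 12794 and 32784. Of the respiratory chain, Ndufa9 of complex I went from 608, 738 and 867 to 1238, 1591 and 1308 (log2 0.91, SE 0.18, limma adjusted p = 0.00763). The 6 genes of the mitochondrial genome that were tested did not pass. Its more abundant genes mt-Co1, mt-Cytb, mt-Nd1, mt-Nd2, mt-Nd4 and mt-Nd5 have group means only and no test. Their SAR means were higher, by 1.20-fold for mt-Nd1 up to 1.44-fold for mt-Nd2. These ratios all lay below 1.48, the ratio of the SAR to the model means summed over all genes, so their direction depends on the scaling.

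Among the chaperones of the endoplasmic reticulum, 9 did not pass besides the 11 that rose. Herpud1, of the degradation pathway for misfolded proteins, went from 2438, 3122 and 3846 to 7928, 13144 and 9487 (log2 1.69, SE 0.27, limma adjusted p = 0.00341). Hspa5, the chaperone BiP, stood at 6061, 7501 and 5849 and 10472, 17243 and 9512 (log2 0.90, SE 0.29, limma adjusted p = 0.0475), and this call was lost without MCD model library a (0.115), b (0.109), SAR library a (0.0704), b (0.165) or c (0.0723). Among glucose genes, the glycogen-targeting subunits Ppp1r3b, from 353, 389 and 486 to 2491, 4331 and 1958 (log2 2.76, SE 0.28, limma adjusted p = 0.000653), and Ppp1r3c, from 62.9, 38.3 and 33.1 to 372, 998 and 192 (log2 3.24, SE 0.52, limma adjusted p = 0.0036), rose. The insulin receptor substrate gene Irs2 fell from 402, 468 and 441 to 228, 190.3 and 195 (log2 -1.09, SE 0.15, limma adjusted p = 0.00202). Leaving out 1 library changed several of these counts. Higher urea cycle genes numbered 6 without MCD model library a or SAR library c, 4 without MCD model library b, 3 without SAR library b. Higher respiratory chain genes numbered 3 without MCD model library a, 2 without MCD model library b or SAR library b, 23 without MCD model library c, 4 without SAR library c, and chaperones 5 without MCD model library a, b or SAR library b. Glucose genes numbered 13 without MCD model library c among the higher and 1 without MCD model library b among the lower. Without MCD model library c the urea cycle list had 19 higher and 0 lower, median 1.1, the chaperones 14 higher and 0 lower, median 0.79, and the glucose list 13 higher and 2 lower, median 1.18. With scaling to total recovered reads 9 urea cycle, 3 respiratory chain and 3 chaperone genes were higher.

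The diet lacks methionine and choline, and of 22 genes that use them or feed the one-carbon pool 9 were higher with SAR and 1 was lower (median log2 0.53). Aldh7a1, which oxidises betaine aldehyde and other aldehydes, went from 2036, 2494 and 2409 to 5281, 7802 and 6263 (log2 1.47, SE 0.21, limma adjusted p = 0.00222), and the sarcosine dehydrogenase gene Sardh from 2043, 2570.0 and 3791 to 5987, 10365 and 7963 (log2 1.54, SE 0.29, limma adjusted p = 0.00652). Both groups lay apart in these genes. The serine synthesis gene Psat1 fell from 91.4, 111 and 95.4 to 18.4, 8.77 and 37.1 (log2 -2.37, SE 0.46, limma adjusted p = 0.00736). Pemt, which makes phosphatidylcholine by methylation, stood at 1418, 1986 and 4305 and 3797, 3912 and 3692 and missed the threshold (limma adjusted p = 0.151), with MCD model library c above all SAR libraries. Mat1a, which makes S-adenosylmethionine, has group means only, 30119.5 and 54153. The number higher was 3 without MCD model library a or SAR library b, 4 without MCD model library b, 5 without SAR library c, and 13 without MCD model library c, where 3 were lower (median 0.74). With scaling to total recovered reads 5 were higher.

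Genes of lipid metabolism divided. Among 24 tested PPARalpha targets and genes of fatty acid oxidation, 8 were higher and 3 lower (median log2 0.77), and without MCD model library c 18 were higher and 3 lower (1.09). Cpt2, which reforms acyl-CoA inside mitochondria, went from 1216, 1438 and 1701 to 2727, 2835 and 3477 (log2 1.06, SE 0.19, limma adjusted p = 0.00517). Pdk4, a kinase that restrains pyruvate oxidation, fell from 841, 868 and 2336 to 243, 126 and 199 (log2 -2.70, SE 0.39, limma adjusted p = 0.00238), and the groups did not overlap. Cpt1a, the gatekeeper of mitochondrial fatty acid uptake, stood at 3869, 4845 and 8871 and 5255, 6603 and 7930.0 and missed the threshold (limma adjusted p = 0.599). Ppara, the receptor gene itself, rose from 241, 163 and 468 to 579, 631 and 786 (log2 1.32, SE 0.33, limma adjusted p = 0.0196), and this call was lost without MCD model library a (0.0665), b (0.061), SAR library b (0.064) or c (0.072). The number higher was 2 without MCD model library a, b, SAR library b or c, 18 without MCD model library c, 5 without SAR library a, and 5 with upper-quartile scaling and 3 with scaling to total recovered reads.

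Among 17 lipid droplet genes 4 were higher and 2 lower (median log2 0.51). Cidec (ENSMUSG00000030278), which drives the fusion of lipid droplets, fell from 1316, 1636 and 2201 to 307, 200.3 and 282 normalised reads (log2 -2.69, SE 0.23, limma adjusted p = 0.000355), with all SAR libraries far below the model. Hilpda, an inhibitor of lipolysis, fell from 175, 310.4 and 231 to 68.8, 35.1 and 78.2 (log2 -2.0, SE 0.33, limma adjusted p = 0.00409). Cideb, of the same family as Cidec but tied to lipoprotein lipidation, rose from 137, 140.0 and 236 to 391, 384 and 355 (log2 1.18, SE 0.22, limma adjusted p = 0.00651). Plin2, the droplet coat protein, stood at 8224, 9731 and 17773 and 8919, 7081 and 10066 and missed the threshold (limma adjusted p = 0.406). Higher droplet genes numbered 8 without MCD model library c, and lower ones 4 with scaling to total recovered reads. The median was 0.68 without MCD model library c.

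Of 16 genes of fatty acid uptake and lipoprotein assembly 5 were higher and 5 lower (median log2 -0.081, and 0.17 without MCD model library c). Apoa4, an apolipoprotein that rises with hepatic fat, fell from 3514, 4199 and 4814 to 693, 394 and 575 (log2 -2.94, SE 0.23, limma adjusted p = 0.000228), and the lipoprotein lipase gene Lpl, which macrophages also express, from 8049, 9129 and 6119.6 to 2856, 1682 and 1657 (log2 -1.94, SE 0.27, limma adjusted p = 0.00195). The hepatic lipase gene Lipc rose from 526, 584 and 1063 to 2518, 2533 and 2464 (log2 1.86, SE 0.25, limma adjusted p = 0.00175). The 2 lipases thus changed in opposite directions, each with groups apart. Cd36, the fatty acid translocase, stood at 2314, 2710.0 and 3800.4 and 1639, 2027 and 1867 (log2 -0.65, SE 0.21, limma adjusted p = 0.0486), and its call was lost without MCD model library b (0.116), c (0.0547), SAR library a (0.124), b (0.0984) or c (0.122). The numbers called were 3 without MCD model library a, b, SAR library b or c for higher genes and 3 without MCD model library b or SAR library b for lower genes. With scaling to total recovered reads 3 were higher and 7 lower.

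Of 17 fatty acid synthesis genes 3 were higher and 1 lower (median log2 0.24, which turned to -0.15 with scaling to total recovered reads). Mlxipl, which encodes the carbohydrate-responsive factor ChREBP, went from 1454, 1290.1 and 1302 to 4680.1, 3453 and 2460.1 (log2 1.34, SE 0.23, limma adjusted p = 0.00484), and Me1, the malic enzyme, from 352, 378 and 488 to 947, 730.0 and 1157 (log2 1.21, SE 0.20, limma adjusted p = 0.00442). Scd2 fell from 215, 195 and 162 to 56.5, 65.1 and 38.4 (log2 -1.84, SE 0.25, limma adjusted p = 0.00188). Fatty acid synthase, Fasn, at 711, 681 and 1337 and 1620.2, 1179.5 and 1247, and Scd1, at 2789, 4223 and 8384 and 7961, 4002 and 2737, missed the threshold (limma adjusted p = 0.104 and 0.933). In Fasn the overlap between the groups came from MCD model library c alone, whereas Scd1 was spread widely in both groups. Without that library 9 genes of the list were higher (median 0.85), and with scaling to total recovered reads 3 were lower.

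Cholesterol synthesis genes depended strongly on that library. Of 26 tested, Tm7sf2 and Ebp were higher with all libraries, and 16 were higher without MCD model library c (median log2 0.52 and 1.04). On the log2 scale that library averaged 1.26 above the other model libraries over this list, beside 0.99, 0.72 and 1.06 for the SAR libraries. Ebp, a sterol isomerase, went from 1119, 1457 and 1810.1 to 2849, 2651 and 2544 (log2 0.90, SE 0.20, limma adjusted p = 0.0119, lost without MCD model library b (0.0511)). Tm7sf2, a sterol reductase, did so from 211, 232 and 584 to 791, 1019 and 889 (log2 1.55, SE 0.34, limma adjusted p = 0.0123, lost without MCD model library b (0.052) or SAR library b (0.0551)). The numbers higher were 0 without MCD model library b, 16 without MCD model library c, 1 without SAR library b. Of 15 sterol export genes and LXR targets, 1 was higher and 2 were lower (median 0.42). The cholesterol exporter gene Abcg1 fell from 382, 303 and 354 to 124, 106 and 143 (log2 -1.47, SE 0.18, limma adjusted p = 0.00133), as did Soat1, an esterifying enzyme gene, (log2 -1.40, SE 0.16, limma adjusted p = 0.00109). Lcat, which esterifies cholesterol in plasma, rose (log2 1.20, SE 0.24, limma adjusted p = 0.00777). Higher genes of that list numbered 9 without MCD model library c and 3 without SAR library a. Its median was 0.64 without MCD model library c, and 4 were lower with scaling to total recovered reads.

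Transcripts of recruited, lipid-laden macrophages were lower with SAR. Of 17 markers of lipid-associated and recruited macrophages tested, 16 were lower and Fabp5 did not pass (median log2 -2.11, and -2.11 without MCD model library c), and 15 to 17 were lower with each library left out. Mmp12 (ENSMUSG00000049723), the macrophage elastase, went from 2609.6, 2470.0 and 2992 to 667, 557 and 746 normalised reads (log2 -2.04, SE 0.17, limma adjusted p = 0.000286). Gpnmb (ENSMUSG00000029816), which encodes a membrane glycoprotein of such macrophages, stood at 2913, 2221 and 3355 and 812, 599.8 and 878 (log2 -1.89, SE 0.21, limma adjusted p = 0.00103), and the lipid receptor gene Trem2 at 719, 592 and 552 and 185, 72.6 and 126 (log2 -2.36, SE 0.30, limma adjusted p = 0.00152). In these 3 genes every SAR library lay below every model library, MCD model library c included. For comparison, on the scale of the other table, the normal and model means of Mmp12 were 8.76 and 2935, and those of Gpnmb 13.6 and 3088.

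Markers of resident Kupffer cells were divided, and Clec4f and Vsig4 did not pass the test. Clec4f, expressed in liver by Kupffer cells alone, stood at 696, 790.5 and 1025 in the model and at 672, 825 and 1072 with SAR and missed the threshold (limma adjusted p = 0.94), as did Vsig4 at 239.8, 284 and 499 and 159.7, 259 and 346 (limma adjusted p = 0.369). Of 13 markers on the Kupffer list 4 were lower, 1 was higher and 8 did not pass, and 3 or 4 were lower with each library left out. Among the lower members were the pan-macrophage genes Cd68 (log2 -1.96, SE 0.18, limma adjusted p = 0.00045) and Csf1r (log2 -1.29, SE 0.16, limma adjusted p = 0.00137). Adgre1, the F4/80 antigen, was lower too (log2 -1.35, SE 0.39, limma adjusted p = 0.0319), but lost its call without MCD model library a (0.0814), b (0.0705), SAR library a (0.0689) or b (0.102). C6, which was higher (log2 2.01, SE 0.21, limma adjusted p = 0.000891), encodes a complement component that hepatocytes make and is also on the male-biased list. The median of the Kupffer list was -0.41, but it was -0.10 without MCD model library c, -0.11 without SAR library a, and between -0.72 and -0.46 without 1 of the others. Whether the recruited and the resident markers differed in their change was not tested.

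Other immune transcripts also fell in part. Of 28 inflammatory cytokine, chemokine and NF-kB genes 15 were lower and 13 did not pass (median log2 -1.06), and 1 gene was higher without MCD model library c. The monocyte receptor gene Ccr2, also on the recruited macrophage list, fell from 507, 411 and 474 to 95.8, 80.1 and 149.7 (log2 -2.13, SE 0.24, limma adjusted p = 0.000995), and its ligand gene Ccl2 from 89.2, 113 and 63.8 to 9.83, 25 and 18.5 (log2 -2.31, SE 0.40, limma adjusted p = 0.00481). Both ligand and receptor were lower in 3 of 3 SAR libraries. Tnf, at 46.1, 30.5 and 22.6 and 23.3, 7.51 and 17.2, and Il1b, at 64.3, 78.2 and 59.8 and 31.9, 33.8 and 67.6, missed the threshold (limma adjusted p = 0.14 and 0.163). Of 17 antigen presentation genes 12 were lower (median -0.82), and Cd74, the invariant chain of class II molecules, fell from 5933, 5359.8 and 4004 to 2304, 1225 and 2155 (log2 -1.46, SE 0.27, limma adjusted p = 0.0064). Markers of T and NK cells were lower in 7 of 16 cases (median -1.26; 11 with scaling to total recovered reads), the interleukin 7 receptor gene Il7r among them (log2 -1.49, SE 0.24, limma adjusted p = 0.00368), and of 6 B and plasma cell markers 2, Cd22 and the antibody joining chain Jchain (log2 -1.91, SE 0.39, limma adjusted p = 0.00885).

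Interferon response genes were lower in 10 of 24 cases and higher in 1, Iigp1 (median log2 -0.69). Oasl2, an antiviral synthetase-like gene, fell from 567, 397 and 191 to 76.2, 72.6 and 98.0 (log2 -2.09, SE 0.36, limma adjusted p = 0.00447), with MCD model library c lowest in its group. Of 15 neutrophil markers 12 were lower (median -2.20). S100a9, a calcium-binding protein of neutrophils, stood at 374, 639.6 and 1401 and 82.3, 86.4 and 252 (log2 -2.5, SE 0.53, limma adjusted p = 0.00975). Over the neutrophil list the model libraries themselves were spread, at -0.46, 0.46 and 0.79 on the log2 scale relative to the mean of a and b. Lcn2 (ENSMUSG00000026822), a siderophore-binding protein that hepatocytes secrete in the acute phase, fell from 9320.4, 8558 and 11182 to 1146, 1857 and 1586 (log2 -2.68, SE 0.23, limma adjusted p = 0.000357).

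Acute phase genes were divided. Of 18 tested 5 were higher and 3 lower (median log2 0.36, and -0.026 with scaling to total recovered reads). The serum amyloid genes Saa1, from 1246, 1097 and 1629 to 2347, 3411 and 4023 (log2 1.28, SE 0.24, limma adjusted p = 0.00617), and Saa2 (log2 1.38, SE 0.26, limma adjusted p = 0.00617) rose, whereas Lcn2 and the endotoxin co-receptor gene Cd14 (log2 -2.0, SE 0.25, limma adjusted p = 0.00135) fell. In the other table the normal and model means were 109240.0 and 1445 for Saa1 and 15317 and 10567 for Lcn2. Without MCD model library c, inflammatory genes had 1 higher and 15 lower, median -1.03, interferon genes 1 higher and 14 lower, median -0.92, neutrophil markers 0 higher and 10 lower, median -2.13, and acute phase genes 7 higher and 3 lower, median 0.49. In the same setting T and NK cell markers had 0 higher and 8 lower, median -1.45, B and plasma cell markers 0 higher and 2 lower, median -0.99, and antigen presentation genes 0 higher and 13 lower, median -0.97. Some immune counts depended on 1 library. Lower interferon genes numbered 5 without MCD model library a, b or SAR library b, neutrophil markers 4 without MCD model library b, 7 without SAR library a, 6 without SAR library b, T and NK cell markers 1 without MCD model library a or b, 2 without SAR library b, 4 without SAR library c, and antigen presentation genes 7 without MCD model library a or SAR library b. Higher acute phase genes numbered 3 without MCD model library a or SAR library b and 2 without MCD model library b.

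With all 6 libraries, matrix genes were lower almost throughout, but many of these calls depended on 1 library. The number lower was 13 without MCD model library a or b, 14 without SAR library b and 15 without SAR library c. Of 33 extracellular matrix and fibrosis genes tested 30 were lower and Fn1, Lox and Ccn2 did not pass (median log2 -2.11, and -2.53 without MCD model library c, where 32 were lower and 1 was higher). Col4a1 (ENSMUSG00000031502), of basement membrane, fell from 2359.5, 2628 and 1370.5 to 490.1, 356 and 368 (log2 -2.35, SE 0.25, limma adjusted p = 0.000905), and the mesenchymal filament gene Vim from 5025, 4507 and 2834 to 1329, 924 and 824 (log2 -1.99, SE 0.26, limma adjusted p = 0.00163). Timp1, an inhibitor of matrix metalloproteinases, stood at 373, 241 and 70.3 and at 34.4, 36.3 and 34.4 (log2 -2.37, SE 0.52, limma adjusted p = 0.0114). The SAR libraries hardly differed in Timp1, whereas MCD model library c held far less than the other model libraries did. The fibrillar collagen gene Col1a1 (ENSMUSG00000001506) was spread in the same way, at 4989, 4131 and 697 and 631, 228 and 196. Its call (log2 -2.99, SE 0.71, limma adjusted p = 0.0154) was lost without MCD model library a (0.0573), b (0.0598), SAR library b (0.0667) or c (0.0594).

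**Figure D5:**
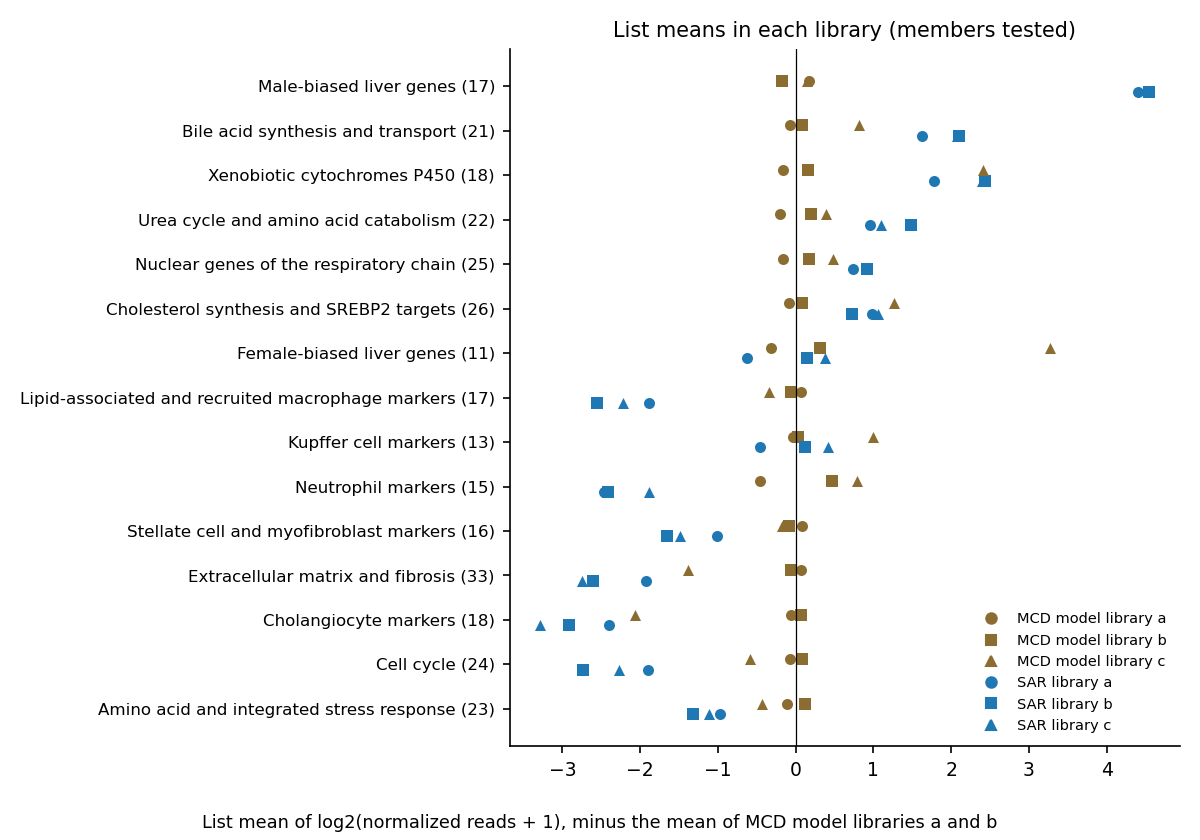
Mean over the tested members of log2(normalised reads + 1) in each library for 15 gene lists, minus the mean of MCD model libraries a and b (horizontal axis). Brown marks are MCD model libraries and blue marks SAR libraries. MCD model library c (brown triangles) lies near the SAR libraries for xenobiotic P450, cholesterol synthesis and cholangiocyte genes, and near its own group for male-biased and recruited macrophage genes. For female-biased genes, and by less for Kupffer cell and neutrophil markers, it lies beyond both groups.

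Stellate cell markers fell with the matrix. Of 16 stellate cell and myofibroblast markers tested 12 were lower and 4 did not pass (median log2 -1.27, and -1.35 without MCD model library c). The actin gene Acta2, which marks activated stellate cells, went from 427, 367 and 118 to 82.3, 51.3 and 39.7 (log2 -2.24, SE 0.47, limma adjusted p = 0.00978), and the pericyte gene Rgs5 from 1037, 1228 and 859.8 to 410.3, 248 and 355 (log2 -1.64, SE 0.22, limma adjusted p = 0.00165). Dcn, the proteoglycan decorin, fell from 5726, 4547 and 5897 to 2974, 2008 and 2289 (log2 -1.16, SE 0.21, limma adjusted p = 0.00602). In Dcn and Rgs5 MCD model library c lay near the other model libraries, in Acta2 well below them. Of 20 sinusoidal endothelial markers 3 were lower (median -0.60), and the endothelial scavenger receptor gene Stab2 stood at 273, 224 and 346 and 294, 322 and 376 (limma adjusted p = 0.356). Lower endothelial markers numbered 0 without MCD model library a, b or SAR library b and 5 without SAR library c. With scaling to total recovered reads 8 endothelial markers were lower, and without MCD model library c there were 1 higher and 3 lower, median -0.54. Lower stellate markers numbered 7 without MCD model library b.

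Of 18 bile duct markers 14 were lower, with a median log2 of -2.48. This was the lowest of all list medians with all 6 libraries, but without MCD model library a or b or SAR library c the neutrophil and cell cycle lists had lower medians. Without MCD model library c all 18 were lower, with a median of -3.33. That library averaged -2.07 against the other model libraries on the log2 scale, beside -2.40, -2.91 and -3.29 for the SAR libraries. Krt19, a keratin of bile duct epithelium, shows the pattern, at 174, 188 and 28.3 in the model and 16, 22.5 and 13.2 with SAR. The groups did not overlap, but MCD model library c lay close above the SAR libraries, and the call (log2 -2.47, SE 0.66, limma adjusted p = 0.0236) was lost without MCD model library a (0.0959), b (0.0973), SAR library a (0.0547), b (0.0582) or c (0.0746). Cd24a, a surface protein of biliary and progenitor cells, stood at 295, 276 and 82.4 and 31.9, 35.1 and 57.0 and kept its call (log2 -2.21, SE 0.47, limma adjusted p = 0.0104). The number of lower markers was 3 without MCD model library a, 1 without MCD model library b, 4 without SAR library b, 5 without SAR library c.

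Transcripts of dividing cells were lower with SAR. Of 24 cell cycle genes 18 were lower and 6 did not pass (median log2 -2.24, and -2.43 without MCD model library c), and 1 was higher without SAR library c. Mki67, the proliferation antigen, went from 505, 717 and 252 to 81.1, 22.5 and 55.6 normalised reads (log2 -3.24, SE 0.49, limma adjusted p = 0.00278), and the mitotic cyclin gene Ccnb1 from 174, 192 and 50.1 to 8.6, 7.51 and 9.27 (log2 -3.67, SE 0.51, limma adjusted p = 0.00198). Mcm2, of the replicative helicase, stood at 104, 87.6 and 120.4 and 19.7, 16.3 and 25.2 (log2 -2.31, SE 0.29, limma adjusted p = 0.00143). All 3 had groups apart, with SAR library b lowest in Mki67, Ccnb1 and Mcm2 alike. Cdc20, the activator of the anaphase-promoting complex, fell from 203, 232 and 54.1 to 13.5, 2.5 and 2.65 (log2 -4.60, SE 0.71, limma adjusted p = 0.003). In the mitotic genes Mki67, Ccnb1 and Cdc20, MCD model library c held the fewest reads of its group.

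Promoters of cell cycle genes often hold the letters TTTGAA, the core of the cell cycle homology region, a motif that was chosen here after the values were seen. Of 20 list members with a promoter entry in RefSeq (GRCm38.p6; 250 bases before to 50 after the start) 9, or 45.0%, held it on either strand, against 14.7% of 9893 tested genes with an entry. The matches shown are examples from genes that fell, with the letters in capitals and 14 bases on each side, for Mki67 (chr7:135716458-135716491, minus strand), Cdk1 (chr10:69352964-69352997, minus strand) and Mcm2 (chr6:88898831-88898864, minus strand).
Mki67: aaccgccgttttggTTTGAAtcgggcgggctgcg
Cdk1: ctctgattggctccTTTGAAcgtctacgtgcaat
Mcm2: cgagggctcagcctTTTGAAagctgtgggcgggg
Cdk1, the mitotic kinase, stood at 178, 267 and 78.4 and 86.0, 16.3 and 25.2 (log2 -2.20, SE 0.62, limma adjusted p = 0.0282), with SAR library a above MCD model library c, and its call was lost without MCD model library a (0.0899), b (0.106), SAR library b (0.103) or c (0.0903). A match describes the sequence and does not show a site in use.

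Of 22 p53 targets and cell death genes 5 were lower and 17 did not pass (median log2 -0.58). Tnfrsf10b, a death receptor, fell from 63.6, 86.8 and 22.6 to 8.6, 5.01 and 5.30 (log2 -2.84, SE 0.56, limma adjusted p = 0.00777), lost without MCD model library b (0.0521). The cell cycle inhibitor gene Cdkn1a stood at 1029.5, 1614 and 424 and 1610.4, 1366 and 336 (limma adjusted p = 0.981). MCD model library c and SAR library c, which are not paired, were the lowest of their groups. The lower p53 targets numbered 1 without MCD model library a or SAR library b, 0 without MCD model library b, 11 without MCD model library c, 3 without SAR library c. With upper-quartile scaling they numbered 8 and with scaling to total recovered reads 12.

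Stress genes fell in part. The integrated stress response slows translation and, through the factor ATF4, turns on genes of amino acid supply and of further factors. Of 23 genes of this response tested 7 were lower, none was higher and 16 did not pass (median log2 -0.74, and -0.98 without MCD model library c, where 12 were lower and 1 higher). With scaling to total recovered reads 15 were lower. The composite element bound by ATF4 with a partner has the core TGATGNAAN. It was found on either strand in a promoter of 8 of 21 members with an entry (38.1%), against 2.81% of 9893 tested genes. Among these 8 were 5 of the 7 lower members and 3 of the 14 members with an entry that did not pass. Each gene list was made of genes already tied to its process, so a higher share of its motif may reflect that choice. A match does not show a site in use. The windows of 4 lower members with the core are shown, with the core in capitals, as on the strand of the gene: Atf3 (chr1:191183424-191183456, minus strand), Slc7a11 (chr3:50443659-50443691, minus strand), Fgf21 (chr7:45615610-45615642, minus strand) and Nupr1 (chr7:126625561-126625593, minus strand). In Atf3, Fgf21 and Nupr1 the core reads in the reverse direction.
Atf3: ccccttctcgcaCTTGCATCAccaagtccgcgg
Slc7a11: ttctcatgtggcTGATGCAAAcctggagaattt
Fgf21: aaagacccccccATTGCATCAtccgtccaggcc
Nupr1: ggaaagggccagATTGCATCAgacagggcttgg

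Nupr1 (ENSMUSG00000030717), a small stress-induced chromatin protein, went from 608, 647 and 657 normalised reads in the model to 122, 30.1 and 26.5 with SAR (log2 -3.76, SE 0.49, limma adjusted p = 0.00154). Atf3 (ENSMUSG00000026628), a stress-induced factor, went from 632, 905 and 695 to 171, 149 and 151 (log2 -2.22, SE 0.17, limma adjusted p = 0.000233). The model libraries hardly differed in Nupr1, and in both genes all SAR libraries lay far below them. The hepatokine gene Fgf21 fell from 581, 741 and 450.1 to 307, 90.2 and 126 (log2 -1.92, SE 0.40, limma adjusted p = 0.00946). The cystine carrier gene Slc7a11 fell from 43.9, 49.3 and 35.6 to 4.91, 15 and 21.2 (log2 -1.76, SE 0.53, limma adjusted p = 0.0349, lost without MCD model library a (0.108), b (0.125), SAR library a (0.0503) or b (0.0708)). Atf4 itself, at 1283, 1499.7 and 1285 and 1405, 1369.8 and 1351, and Ddit3, at 188, 203 and 156 and 163, 139 and 114, missed the threshold (limma adjusted p = 0.912 and 0.164). Asns, Chac1 and Vldlr, which hold the core too, did not pass either. The number of lower members was 4 without MCD model library a, b or SAR library b, 12 without MCD model library c.

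Of 28 NRF2 targets and glutathione genes 11 were lower and 3 higher (median log2 -0.10). The pentose phosphate genes Pgd, from 963, 1011 and 966 to 441, 352 and 425 (log2 -1.28, SE 0.15, limma adjusted p = 0.00105), and G6pdx, from 268, 266 and 227 to 88.4, 71.4 and 94.1 (log2 -1.58, SE 0.19, limma adjusted p = 0.00121), fell, as did the haem oxygenase gene Hmox1, from 1422, 1454 and 1679 to 375, 327 and 648 (log2 -1.81, SE 0.24, limma adjusted p = 0.00175). In each of the 3 the model libraries lay close together and above all SAR libraries. Gclc, which starts glutathione synthesis, stood at 2408, 3242 and 1842 and 4186, 3604 and 2843 and missed the threshold (limma adjusted p = 0.139). Lower genes numbered 6 without MCD model library b and 7 without SAR library b, and higher ones 0 without MCD model library b, 5 without MCD model library c, 1 without SAR library b or c. The core of the antioxidant response element, TGACNNNGC, was found on either strand in a promoter of 9 of 24 member genes with an entry (37.5%), and of 16.9% of all tested genes with one. Leaving out MCD model library c gave 5 higher and 11 lower, median -0.055.

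Immediate early genes were lower in 8 of 19 cases, with 11 not passing (median log2 -0.63). Myc fell from 343, 396 and 288 to 81.1, 91.4 and 70.2 (log2 -2.06, SE 0.19, limma adjusted p = 0.000514) and the zinc finger gene Klf6 from 1222, 1428 and 1031 to 348, 341 and 411 (log2 -1.73, SE 0.17, limma adjusted p = 0.000534), whereas Fos stood at 119.9, 238 and 191 and 204, 138 and 139 (limma adjusted p = 0.686). Lower members numbered 5 without MCD model library b. With MCD model library c left out there were 0 higher and 9 lower, median -0.64. None of the 16 member genes with a promoter entry held the AP-1 letters TGANTCA there on either strand, against 6.55% of all tested genes with an entry. Of 26 cholesterol synthesis genes, 18 had a promoter entry, and 1 of these (5.56%) held TCACNCCAC, the sterol regulatory element, against 1.46% of all.

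Of 24 lysosome and autophagy genes 6 were higher and 5 lower (median log2 -0.11), with upper-quartile scaling 6 and 8, and with scaling to total recovered reads 3 and 11. Without MCD model library c there were 8 higher and 6 lower, median -0.028. The macrophage proteases Ctss, from 4111, 3662 and 4237 to 1277, 955 and 1538 (log2 -1.69, SE 0.20, limma adjusted p = 0.00124), and Ctsk (log2 -2.11, SE 0.31, limma adjusted p = 0.00241) fell, and Lamp1, a lysosomal membrane protein, missed the threshold (limma adjusted p = 0.215). Higher lysosome genes numbered 3 without MCD model library b or SAR library b. Of 18 clock genes 3 were higher and 1 lower (median 0.46), and 12 were higher without MCD model library c (median 0.84). The repressor gene Nr1d1 rose from 304, 143 and 355 to 626, 808 and 733 (log2 1.52, SE 0.31, limma adjusted p = 0.00828). Dbp, a strongly rhythmic output gene, stood at 53.4, 23.5 and 779 and 123, 189 and 823 and Arntl at 158, 145 and 27.5 and 125, 133 and 30.5. MCD model library c and SAR library c, which are not paired, were each high in Dbp and low in Arntl within their group. Neither gene passed (limma adjusted p = 0.38 and 0.926). The hour of sampling is not given in the labels. Higher clock genes numbered 12 without MCD model library c, 1 without SAR library b, and lower ones 0 without MCD model library a, b, SAR library a or b, 2 without MCD model library c. The haem synthesis gene Alas2 rose from 156, 158 and 215 to 608, 715 and 648 (log2 1.91, SE 0.17, limma adjusted p = 0.000435), while of the other 4 erythroid genes tested (median of all 5, -0.38), all globin genes, Hba-a1 fell slightly (log2 -0.55, SE 0.17, limma adjusted p = 0.0392, lost without MCD model library a (0.119), b (0.135), SAR library a (0.0756) or b (0.15)).

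The largest falls were mostly of genes with few reads in the SAR and normal groups. Vmn2r3 (ENSMUSG00000091572), annotated as a vomeronasal receptor, stood at 165, 191 and 323 in the model libraries and had no read in the SAR libraries. Against a floor of 3 reads over the group it was at least 178-fold lower (limma adjusted p = 8.54e-05). It was also listed at 0 in the normal group. Rbm24, an RNA-binding protein gene of muscle, had 219 reads in the model and none with SAR, at least 43.9-fold lower (limma adjusted p = 0.00143). Sprr1a, a cornified envelope gene induced in stressed epithelium, went from 169, 194 and 72.7 to 6.14, 1.25 and 0 (log2 -5.74, SE 0.74, limma adjusted p = 0.00152), and Nrg1, the growth factor neuregulin 1, from 192, 344 and 92.1 to 6.14, 1.25 and 11.9 (log2 -4.96, SE 0.68, limma adjusted p = 0.00194). Akr1c18, which inactivates progesterone, stood at 55.6, 182 and 111 and 7.37, 3.76 and 0 (log2 -4.94, SE 0.80, limma adjusted p = 0.0036). In these 5 genes the SAR libraries lay between 0 and 11.9 normalised reads. Normal and model means in the other table were 1.6 and 158 for Sprr1a, 2.82 and 228 for Nrg1, and 0.798 and 126 for Akr1c18. Igdcc4, an immunoglobulin superfamily gene, fell from 189, 112 and 104 to 7.37, 1.25 and 0 (log2 -5.62, SE 0.74, limma adjusted p = 0.00163) and stood at 184 and 147 there. Tmprss4, a membrane serine protease, had 131 reads in the model and 1 with SAR, which is a ratio of 79.9 (95% exact interval 14.1 to 3178).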

How the data were processed

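Total RNA of liver had been extracted with Trizol and made into libraries with a NEBNext Ultra kit, per the labels' protocols. The deposited tables give, per the file headers, for each gene one mean of normalised counts per group (a signal that the authors scaled by a size factor per library) beside fold changes and p-values, which were not used. The reference was mm9, per the submitters' processing notes. Software and counting rule, strand included, were not given in the sources used here.

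The deposited means have 15 significant digits, and each is a sum of whole read numbers divided by 3 times the size factors. The size factors (1.368, 1.279 and 1.2375 in the MCD model, 0.814, 0.799 and 0.755 with SAR) and the reads of each library were recovered from them. For the MCD model 16057 genes were solved from both tables together, and 15982 of 15982 genes solved in each table alone gave the same reads. Of 15080 genes tried for SAR 15030 had 1 solution, 50 had several and none had no solution. The recovery was tested on simulated data. Recovered reads divided by the size factor are the normalised reads. Genes with a mean of at least 10 were tested with limma 3.58.1 (R 4.3.3) on log2(value + 1), with a trended variance, two-sided, with Benjamini-Hochberg adjustment over 12468 genes and a threshold of 0.05. A fold change on this scale understates the change of low genes. Intervals of read ratios are exact at 95% and cover counting error only, and a group with no read was set to a floor of 3 reads over its libraries. Recovered reads cannot be assigned to replicate numbers.

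Named genes are the 12 largest rises and the 12 largest falls among called genes whose groups did not overlap, and called or leading members of 39 gene lists. Further members were chosen after their values were seen. The comparison, the lists and the genes were chosen with earlier results of these data known. Symbols were matched for 16263 of 16294 genes. Promoters are from RefSeq (GRCm38.p6), matched by symbol. Alternatives were other pseudocounts, filters, scalings and variance models, array weights, and each library left out. Some genes are not reported here. Figures were drawn with matplotlib 3.10.9.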

Additional observations from a re-analysis of the deposited data

How the results depend on the processing

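With other settings the numbers of higher and lower genes were 662 and 3234 with scaling to total recovered reads and 3307 and 3537 with array weights. Leaving out 1 library at a time gave 628 to 2541 higher and 918 to 2612 lower genes, the lowest of both without MCD model library b and the highest without MCD model library c. Of the 3662 called genes, 1383 (37.8%) kept their call with each of the 6 libraries left out. By group means, 1109 genes had a log2 ratio above 1 without MCD model library c, and 1203 one below -1 at a minimum of 50 and 3477 with no filter. With 1 library left out these numbers ranged from 558 to 1109 and from 2067 to 2456. The cause of these shifts was not tested. Pseudocounts of 0.5 and 5, a minimum of 50, no filter, upper-quartile scaling and no variance trend kept both numbers of calls within 1.5 times, but at a minimum of 50 higher genes outnumbered lower ones. Among single named genes, 2401 values under an alternative kept their outcome as called or not passed, 148 lost the call and 41 gained it. Genes that did not pass could change sign, such as Cela1. Its log2 fold change was -0.079 with all libraries and 0.198 without MCD model library c. No paired analysis was possible because the deposited means carry no replicate numbers, so recovered libraries cannot be tied to them. Genes without values per library, which hold 47.0% of the summed SAR means, have no test.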

Other observations

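Several genes of growth hormone signalling, chosen after their values were seen, differed between the groups. Igfals, the acid-labile subunit that carries IGF1 in plasma, stood at 199.6, 184 and 459.8 normalised reads in the MCD model and at 903, 978 and 1053 with SAR (log2 1.92, SE 0.31, limma adjusted p = 0.00371). Bcl6, a repressor in this pathway, went from 151, 142 and 182 to 528, 631 and 608 (log2 1.90, SE 0.16, limma adjusted p = 0.000357). The feedback inhibitors moved the other way: Socs2 fell from 314, 396 and 434 to 162, 95.2 and 197 (log2 -1.38, SE 0.27, limma adjusted p = 0.0074) and Cish from 129, 97.0 and 119.6 to 14.7, 7.51 and 34.4 (log2 -2.78, SE 0.48, limma adjusted p = 0.00474). The groups did not overlap in any of these 4 genes. Stat5b, the transducer, stood at 562, 536 and 452 and 646, 695 and 462 and missed the threshold (limma adjusted p = 0.435). The letters TTCNNNGAA, a STAT5 motif also chosen after the values were seen, were sought on either strand. They were found in a promoter of 1 of 12 male-biased genes with an entry (8.33%) and of 8.38% of all, and 1 gene is too few to compare these shares.

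Other hepatocyte genes outside the lists, also chosen after their values were seen, rose. The carboxylesterase gene Ces2a went from 173, 148 and 331 to 3094, 3465 and 3691 (log2 4.06, SE 0.27, limma adjusted p = 0.000119), Nox4, an NADPH oxidase, from 228, 225 and 272 to 1006, 1189.5 and 1114 (log2 2.19, SE 0.15, limma adjusted p = 0.000119), and the mannose-binding lectin gene Mbl2 from 797, 1025 and 1179.8 to 5019, 4843 and 4528 (log2 2.28, SE 0.19, limma adjusted p = 0.000286). Srd5a1, a steroid 5-alpha-reductase, stood at 308, 259 and 276 and 953, 810.1 and 899.5 (log2 1.66, SE 0.14, limma adjusted p = 0.000379). In each of these 4 genes MCD model library c lay far below all SAR libraries.

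Of the genes tested, 8 had no read in any SAR library and none lacked reads in all MCD model libraries. A gene without reads in a group passed the filter on the mean over both groups only through the other group. Depth differed as well: 3 reads over a group equalled a mean of 1.27 normalised reads with SAR and 0.77 in the MCD model. The same low level was thus more easily missed with SAR, and the part of depth in these counts was not tested. Besides Vmn2r3 and Rbm24, the genes Krt20, Troap, Myo7b, Prtg and Wfdc15b were called lower, and the female-biased gene Cyp3a44, with 0.731, 1.56 and 68.7 in the model, did not pass (limma adjusted p = 0.229). The calls of Krt20, Troap, Myo7b, Prtg and Wfdc15b were each lost with at least 1 of the 6 libraries left out in turn, with a highest limma adjusted p of 0.059 for Troap and 0.254 for Wfdc15b. The Y-linked genes Ddx3y, Eif2s3y, Kdm5d and Uty stood at 149.89 normalised reads or more in each of the 6 libraries. Eif2s3y was higher with SAR (log2 0.62, SE 0.15, limma adjusted p = 0.0172), but lost its call with 1 library left out (highest limma adjusted p 0.0792). Ddx3y (limma adjusted p = 0.0514), Kdm5d and Uty did not pass.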
